A study of Homo sapiens with 27 samples.

Results

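Osteopontin, the surface receptor CD44, ICAM-1 and a set of integrin subunits of myeloid cells were followed through 10 genes: SPP1, ICAM1, CD44, ITGAV, ITGB3, ITGA4, ITGAM, ITGAX, ITGAL and ITGB2. Their probes were taken by gene symbol from the platform's probe table, and the genes were chosen with earlier results of these data known. Each gene was read by 1 probe, so that 10 of the 30968 probes on the array, or 10 of 15207 named genes, are described. RNA came from U937, an established human monocytic line derived from a histiocytic lymphoma, and was hybridised in the Cy5 channel of a single-colour oligonucleotide array. The groups were cells given 10 µM PBD150 for 2 h and then lipopolysaccharide (LPS, a bacterial cell wall component sensed by Toll-like receptor 4) at 4 µg/ml, cells given LPS at 4 µg/ml alone, and untreated cells, all cultured for 48 h. PBD150 inhibits glutaminyl cyclase, the enzyme activity that turns N-terminal glutamine into pyroglutamate. Each group had 3 cultures that the labels call biological replicates, with 3 arrays each. The treatment label says macrophage, while no agent that would differentiate the line is named, so the state of the untreated cells is known only from their own values. A line in bulk culture gives 1 value for all its cells: more cells expressing a gene and more RNA per cell cannot be told apart.

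Osteopontin, the product of SPP1, is a secreted phosphoprotein that macrophages release in inflammation. It is bound through an RGD motif by integrins that hold the alpha-v subunit (ITGAV), such as alpha-v with the ITGB3 product, and at a neighbouring site by integrins with the alpha-4 subunit (ITGA4). CD44 is the main receptor for hyaluronan and has also been described as an osteopontin receptor. ICAM1 encodes the endothelial and leukocyte surface ligand of the integrins known as LFA-1 and Mac-1. These leukocyte integrins share the beta subunit encoded by ITGB2, paired with the product of ITGAL in LFA-1, of ITGAM in Mac-1 and of ITGAX in the receptor also called CD11c. An alpha subunit reaches the cell surface only with a beta partner, and none of that pairing is read by an RNA array.

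The genes lie on several chromosomes of GRCh38.p14 (RefSeq). ITGAM (chr16:31259975-31332877) and ITGAX (chr16:31355176-31382999) lie close together on chromosome 16, and ITGAL (chr16:30472742-30523185) lies farther off on the same chromosome. SPP1 is at chr4:87975714-87983411, ICAM1 at chr19:10271120-10286615, CD44 at chr11:35139171-35232402 and ITGB2 at chr21:44885953-44928815. ITGAV (chr2:186590056-186680901) and ITGA4 (chr2:181457205-181538940) are both on chromosome 2, and ITGB3 is at chr17:47253827-47313743. The windows before the start sites of ICAM1, SPP1 and ITGAM are shown because these genes rose furthest among the 6 members for which a RefSeq window was at hand. They are the 250 bases upstream of the start on the plus strand of GRCh38.p14 (chr19:10270870-10271119, chr4:87975464-87975713 and chr16:31259725-31259974), with capitals at matches to 6 short motifs looked for on both strands.
ICAM1: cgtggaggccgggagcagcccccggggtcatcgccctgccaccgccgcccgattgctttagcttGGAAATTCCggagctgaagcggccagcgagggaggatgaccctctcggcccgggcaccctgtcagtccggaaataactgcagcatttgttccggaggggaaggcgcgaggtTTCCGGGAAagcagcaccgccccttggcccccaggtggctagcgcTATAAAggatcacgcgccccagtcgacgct
SPP1: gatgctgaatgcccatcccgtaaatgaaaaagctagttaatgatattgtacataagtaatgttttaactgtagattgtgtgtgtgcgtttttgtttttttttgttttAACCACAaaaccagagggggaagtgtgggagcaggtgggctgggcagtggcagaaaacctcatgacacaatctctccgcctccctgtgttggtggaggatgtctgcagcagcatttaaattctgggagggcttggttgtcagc
ITGAM: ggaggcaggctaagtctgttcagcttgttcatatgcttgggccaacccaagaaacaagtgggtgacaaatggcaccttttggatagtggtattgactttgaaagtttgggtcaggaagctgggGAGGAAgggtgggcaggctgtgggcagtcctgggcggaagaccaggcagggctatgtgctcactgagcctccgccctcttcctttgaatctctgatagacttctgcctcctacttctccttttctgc
The ICAM1 window held GGAAATTCC, a sequence of the type bound by NF-kB, starting 186 bases before the start, and 0.413% of all 35116 windows hold it. It also held TTCNNNGAA, a STAT-type motif present in 6.57% of windows, and a TATAAA box, present in 10.7%. The SPP1 window held the RUNX-type motif AACCACA at 143 bases (3.65% of windows) and the ITGAM window the ETS core GAGGAA at 127 bases (23.6% of windows). The AP-1 motif TGANTCA (6.57% of windows) matched in none of these 3 windows. Motifs were chosen after the sequences were seen, and a match is a description of the letters only.

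Across the arrays, median intensity ran from 41.5 to 100.3 units and 69.0% to 77.8% of probes were above the array's noise limit, taken as 3 times the size (root mean square) of that array's negative values. Of the 10 genes, 9 were above that limit on all 27 arrays. ITGAV was the exception, with 6 of 9 arrays above it in PBD150 plus LPS, 6 of 9 in LPS and 3 of 9 in untreated cells. No member reached 99% of an array's maximum on any array. SPP1 came closest, at up to 86.4% with PBD150 plus LPS and 97.3% with LPS, so there was little room to read a higher level in those groups. ITGAX was at up to 82.6% and 62.8%, and ITGB2 at up to 53.8% and 64.3%, in the same order. All 8 measured monocyte and macrophage markers were above the noise limit on every array, untreated cells included, and their summed intensity was 153641 to 159013 with PBD150 plus LPS, 143789 to 158029 with LPS and 9243 to 9674 untreated. Of these 8 markers 5 rose with LPS, where 13.6% of all named genes rose and 15.4% fell. Among the 5, CD14 rose by 6.92, ADGRE1 by 6.20 and TYROBP by 4.40 on the log2 scale. CD14 (15.86) and TYROBP (15.83) had higher mean log2 levels with LPS than SPP1 (15.27), so the top of the scale may limit those rises. LYZ (-0.65), SPI1 (-0.14) and CD33 (0.48) did not pass. These markers were named after their values were seen. Levels below are quantile-normalised intensities, 1 value per culture from the mean log2 of its 3 arrays, and differences are in log2 with the standard error of the limma fit over all 9 cultures.

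**Figure D1:**
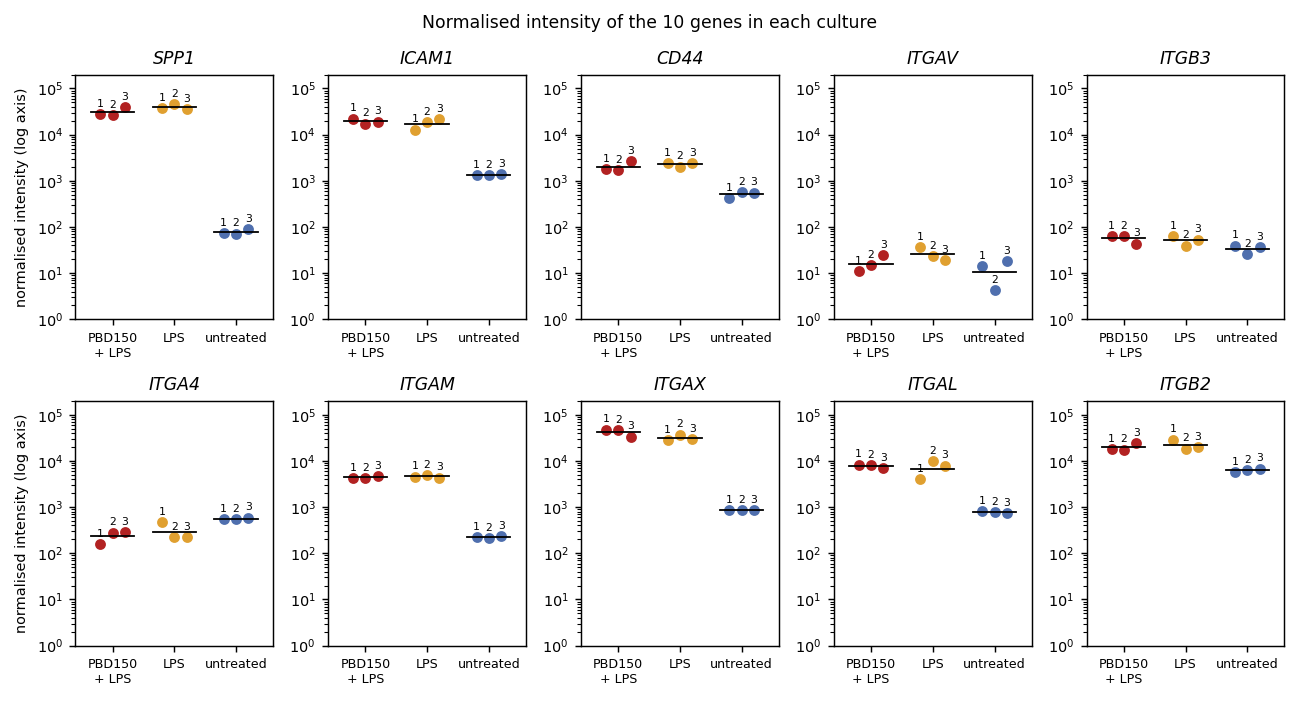
Normalised intensity (log axis) of each of the 10 genes. Points are cultures, numbered by replicate, and lines are geometric means of 3 cultures, with the groups PBD150 plus LPS, LPS and untreated from left to right. SPP1, ICAM1, CD44, ITGAM, ITGAX, ITGAL and ITGB2 have both LPS-treated groups above all untreated cultures, as does ITGB3 by a small margin, while ITGA4 has them below.

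The first comparison asked what LPS changed. Of the 10 genes, 7 rose with LPS and 0 fell at an adjusted p under 0.05 (limma, Benjamini-Hochberg over all 30968 probes), where 10.6% of all probes rose and 11.8% fell. For 9 of the 10 all LPS cultures lay above all untreated ones and for 1, ITGA4, below, against 23.4% and 20% of all probes. The median difference of the 10 genes was 2.63, against 0.08 over all probes. Since the genes were chosen with earlier results of these data known, their shares beside those of all probes are a description, not a test. The secreted and surface ligands, CD44 and the 4 subunits of the ITGB2 family rose, and the matrix integrin subunits ITGAV, ITGB3 and ITGA4 did not pass.

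SPP1 showed the third largest rise of the 30968 probes. Its intensity was 37229, 45999.6 and 36284 in LPS cultures, against 75.0, 71.6 and 90.5 in untreated cultures. The groups lay far apart, with no overlap. The difference was 8.98 ± 0.22 (SE, n = 3 each, limma adjusted p = 5.46e-07), a 503.8-fold rise with a 95% interval of 356 to 713. ICAM1, the adhesion ligand, read 12846, 18512 and 21403 in LPS cultures and 1345, 1313 and 1382 in untreated ones. It rose by 3.68 ± 0.22 (limma adjusted p = 2.81e-05), or 12.8-fold.

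CD44 had 2409, 2036 and 2388 units in LPS cultures and 423, 574 and 556 in untreated cultures, groups that did not overlap. The rise was 2.15 ± 0.23 (limma adjusted p = 0.00037), or 4.43-fold. The 3 arrays of untreated replicate 1 gave CD44 values from 285 to 548, a wider range than in untreated replicates 2 and 3, at 562 to 596 and 548 to 567.

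All 4 genes of the ITGB2 family rose, by different amounts. ITGAX, the CD11c chain, had 28069, 37101 and 29766 units in LPS cultures and 853, 868 and 872 in untreated ones. Its rise of 5.18 ± 0.20 (limma adjusted p = 4.47e-06) was 36.3-fold. ITGAM, the CD11b chain, had 4592, 5003 and 4339 units with LPS and 228, 217 and 237 untreated, a rise of 4.35 ± 0.16 (limma adjusted p = 3.34e-06), or 20.4-fold. Its LPS cultures differed little from each other, with an SD of 0.10 on the log2 scale. ITGAL, the LFA-1 chain, had 4023, 9832 and 7891 units with LPS and 811, 776 and 751 untreated, a rise of 3.12 ± 0.31 (limma adjusted p = 0.000256). It was the least even of the risers, with an SD of 0.67 between LPS cultures against 0.12 between arrays of 1 culture. ITGB2, the shared beta chain, had 28871, 18462 and 19858 units with LPS and 5680, 6269 and 6804 untreated. It rose by 1.82 ± 0.23 (limma adjusted p = 0.000903), or 3.52-fold, with a 95% interval of 2.43 to 5.11. That interval lies below those of ITGAL (5.31 to 14.3), ITGAM (15.8 to 26.4) and ITGAX (26.3 to 50.1), although a difference between the folds of 2 genes was not tested. ITGAD, the remaining alpha partner of ITGB2, named after its values were seen, was dim (above the noise limit on 6 of 9 LPS arrays and 6 of 9 untreated arrays) and differed by -0.30 ± 0.48.

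The matrix integrin subunits had smaller differences. ITGA4 had 467, 226 and 227 units with LPS, against 544, 542 and 595 untreated. The groups did not overlap, but 1 LPS culture stood near the untreated level, and the difference of -0.96 ± 0.34 did not pass (limma adjusted p = 0.0804). Without LPS replicate 1 it was -1.31 and passed (limma adjusted p = 0.0134). ITGB3 had 63.5, 39.8 and 53.4 units with LPS and 39.4, 25.4 and 36.4 untreated, a difference of 0.63 ± 0.27 (limma adjusted p = 0.141). ITGAV had 36.8, 23.1 and 19.4 units with LPS and 14.1, 4.38 and 18.2 untreated, close to the noise limits of 12.9 to 18.7 units, and its difference of 1.30 ± 0.55 did not pass (limma adjusted p = 0.133). On the values as deposited, without quantile normalisation, both passed, ITGB3 at 1.10 (limma adjusted p = 0.0186) and ITGAV at 1.58 (limma adjusted p = 0.047), in a scaling where the median of all probes was 0.41. The 7 rises were also called there and under every other alternative run.

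**Figure D2:**
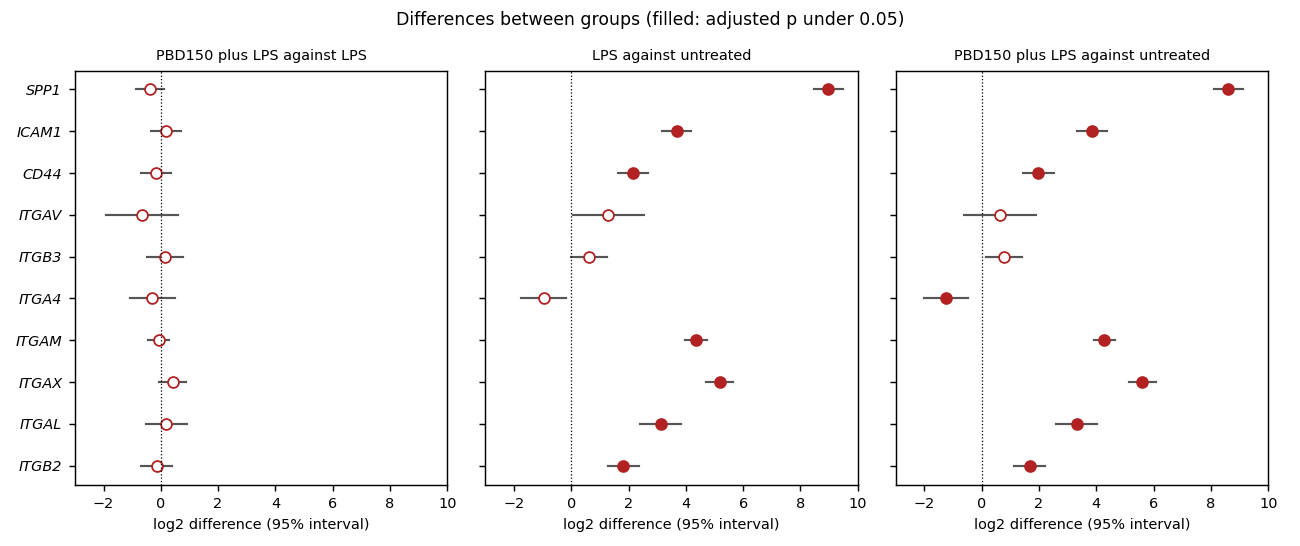
Log2 differences of the 10 genes (points) with 95% intervals (lines), for PBD150 plus LPS against LPS, LPS against untreated and PBD150 plus LPS against untreated. Filled points passed an adjusted p under 0.05, which holds for 0, 7 and 8 of the 10 genes.

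The study's title asks about glutaminyl cyclase activity, and the comparison that bears on it is of LPS-treated cells with and without PBD150. None of the 10 genes passed (limma, 0 higher and 0 lower), and 0 had an unadjusted p under 0.05. Over all probes 0% passed as well, while 5.11% had an unadjusted p under 0.05. That share was 12.2% without PBD150 plus LPS replicate 3 and 8.49% with array weights. Without that replicate 2 of the 10 genes, SPP1 and ITGAX, had an unadjusted p under 0.05, and 0 passed after adjustment (limma). SPP1 was also under 0.05 before adjustment with array weights (limma). ITGAX was so with a pseudocount of 16, without LPS replicate 2, and with all 27 arrays and the culture as a random block (limma). The smallest adjusted p among the 10 genes was 0.906. In none of them did the PBD150 plus LPS cultures lie wholly above or below the LPS cultures, where 7.98% of all probes showed such a separation.

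SPP1 had 27543, 26471 and 39149 units with PBD150 plus LPS, against 37229, 45999.6 and 36284 with LPS. Replicates 1 and 2 of the inhibitor group were below all LPS cultures and replicate 3 was among them. The difference was -0.37 ± 0.22, with a 95% interval of -0.88 to 0.13. ITGAX stood the other way, with 47854, 45726 and 33739 units against 28069, 37101 and 29766 with LPS. Again replicate 3 of the inhibitor group lay among the LPS cultures, and the difference of 0.42 ± 0.20 had an interval of -0.05 to 0.88. For CD44, with 1796, 1717 and 2667 units against 2409, 2036 and 2388, the difference was -0.17 ± 0.23. Here replicates 1 and 2 of the inhibitor group were below all LPS cultures, and replicate 3 was above all of them.

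ITGAM was the most even gene here, with 4288, 4202 and 4702 units with PBD150 plus LPS and 4592, 5003 and 4339 with LPS. Its difference of -0.08 ± 0.16 had an interval of -0.45 to 0.29. The other members gave 0.18 ± 0.22 for ICAM1, 0.19 ± 0.31 for ITGAL, -0.15 ± 0.23 for ITGB2, 0.14 ± 0.27 for ITGB3, -0.29 ± 0.34 for ITGA4 and -0.67 ± 0.55 for ITGAV. In the fit over all 3 groups, the 95% interval of the difference lay within 2-fold in both directions for 8 of the 10 genes. The exceptions were ITGA4 (-1.07 to 0.49) and ITGAV (-1.92 to 0.59), which reach past 2-fold on the lower side. These intervals use a spread shared with untreated cells, whose median SD over all probes was 0.21, against 0.37 with PBD150 plus LPS and 0.36 with LPS. Fitted on the 2 treated groups alone, SPP1 had an SE of 0.26 and ITGAX 0.26, and 0 members passed (limma). The intervals of SPP1 and ITGAX are wider in that fit, and the count of 8 was not recomputed there. It does not hold on the values as deposited, without quantile normalisation. There SPP1 was at -0.61 ± 0.30, CD44 at -0.40 ± 0.34 and ITGB2 at -0.36 ± 0.33, with intervals that reach past 2-fold on the lower side. ITGAX was at 0.22 ± 0.22 there.

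Several of these values rested on single cultures. In LPS replicate 1 all 3 arrays lay outside the range of the other 6 LPS arrays for 4 of the 10 genes, as for 20.3% of all probes. ICAM1 and ITGAL were lower there, with arrays at 11490 to 14767 and 3753 to 4260 units, and ITGA4 and ITGB2 were higher, at 403 to 504 and 25205 to 31311 units. For ICAM1, ITGAL and ITGA4 this is the side of the untreated cells, and for ITGB2 it is the opposite side. In PBD150 plus LPS replicate 3 it was 3 of the 10 genes, with CD44 and ITGB2 above and ITGAX below the other arrays of that group, where 15.9% of all probes stood apart. PBD150 plus LPS replicates 1 and 2 had 1 and 0 such genes (6.15% and 5.66% of all probes), and LPS replicates 2 and 3 had 2 and 1 (5.29% and 8.94%). Without LPS replicate 1 the differences with PBD150 changed sign for ICAM1 (-0.034), ITGAL (-0.19), ITGA4 (0.055) and ITGB2 (0.0504), and none passed. Without PBD150 plus LPS replicate 3 the differences were -0.55 ± 0.20 for SPP1, -0.37 ± 0.20 for CD44 and 0.57 ± 0.18 for ITGAX, none of which passed (limma adjusted p = 0.383, 0.470 and 0.370).

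**Figure D3:**
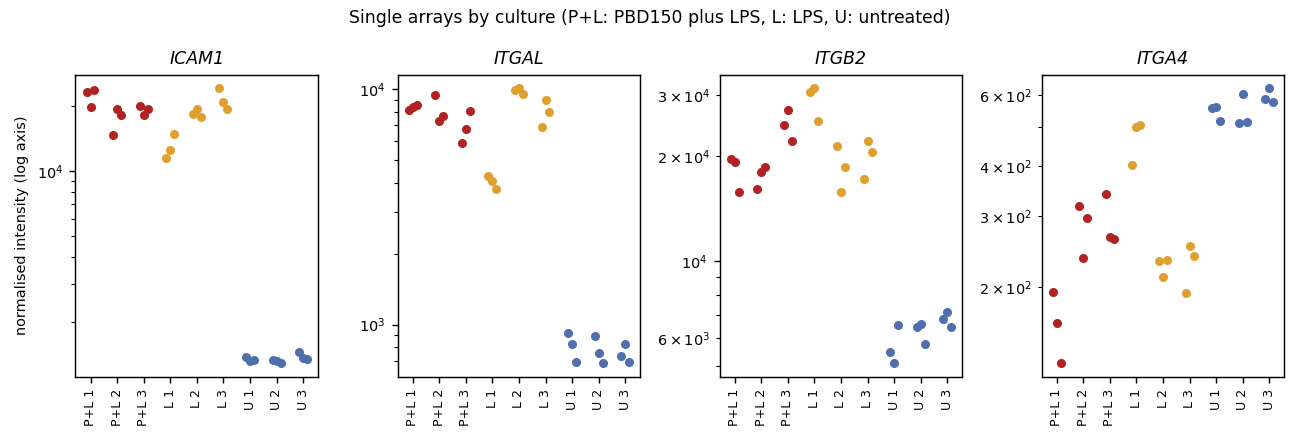
Normalised intensity (log axis, a separate range in each panel) of ICAM1, ITGAL, ITGB2 and ITGA4 on each of the 27 arrays, grouped by culture with PBD150 plus LPS (P+L) left of LPS (L) and untreated (U). The 3 arrays of LPS replicate 1 stand apart from those of LPS replicates 2 and 3 in all 4 panels.

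Cells given both PBD150 and LPS were also compared with untreated cells, the same untreated arrays as for LPS alone. Of the 10 genes 7 rose and 1 fell, where 12.6% of all probes rose and 13.5% fell. The cultures did not overlap for 8 genes on the higher side (24% of all probes) and 1 on the lower side (21.3%). SPP1 rose by 8.60 ± 0.22 (limma adjusted p = 7.17e-07), ITGAX by 5.60 ± 0.20 (limma adjusted p = 3e-06), ITGAM by 4.27 ± 0.16 and ICAM1 by 3.85 ± 0.22. ITGAL rose by 3.31 ± 0.31, CD44 by 1.98 ± 0.23 and ITGB2 by 1.67 ± 0.23 (limma adjusted p = 0.00117). ITGA4 had 160, 282 and 287 units with PBD150 plus LPS, against 544, 542 and 595 untreated, and fell by 1.25 on the log2 scale (SE 0.34, limma adjusted p = 0.0275). That call was lost without PBD150 plus LPS replicate 1 (limma adjusted p = 0.0902), without any 1 of the untreated replicates (0.0685, 0.0721 and 0.0804), on the values as deposited (0.0548) and with the replicate number as a block (0.0685). ITGA4 passed here and not with LPS alone, but its difference between those treated groups, -0.29, did not pass. ITGB3, at 64.6, 64.0 and 43.8 units with PBD150 plus LPS and 39.4, 25.4 and 36.4 untreated, differed by 0.77 ± 0.27 (limma adjusted p = 0.0707), which did not pass. It passed without PBD150 plus LPS replicate 3 (0.96, limma adjusted p = 0.0369), on the values as deposited (1.05, limma adjusted p = 0.0221), with a pseudocount of 16 (0.55, limma adjusted p = 0.0494) and with array weights (0.98, limma adjusted p = 0.0178). ITGAV, at 11.05, 15.04 and 24.86 units against 14.1, 4.38 and 18.2, differed by 0.63 ± 0.55 and did not pass.

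Integrin genes outside the set were read in the same fit, in which 13.6% of all named genes rose and 15.4% fell with LPS. Of 13 other alpha subunits 2 rose and 1 was called lower, and their median difference was -0.13, against 0.05 over all named genes. ITGA7, a laminin receptor chain, rose by 1.52 ± 0.38 (limma adjusted p = 0.0204) and ITGA6, another one, by 1.25 ± 0.37 (limma adjusted p = 0.0418). ITGA8, the one called lower, was above the noise limit on 0 of 9 LPS arrays and 0 of 9 untreated arrays, and no fold is given. Of 6 other beta subunits 2 rose. ITGB5, which also pairs with alpha-v, had mean log2 levels of 12.82 with LPS and 8.69 untreated, and rose by 4.13 ± 0.19 (limma adjusted p = 8.54e-06). ITGB7, a partner of the ITGA4 product, rose by 4.91 ± 0.39 (limma adjusted p = 9.67e-05), with only 4 of 9 untreated arrays above the noise limit. With the dimmer untreated arrays raised to the limit, a setting chosen after the data were seen, its rise was 4.11. With PBD150 plus LPS ITGB5 stood at 4.06 and ITGB7 at 4.63 above untreated cells, or 3.84 for ITGB7 with those arrays raised. Neither gene differed from LPS alone beyond its error (-0.07 ± 0.19 and -0.27 ± 0.39).

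Of 13 other ligands of these integrins 7 rose with LPS and 0 fell, where 13.6% of all named genes rose and 15.4% fell. FN1, which encodes fibronectin, rose by 3.71 ± 0.37 (limma adjusted p = 0.000257), ICAM3, a leukocyte ligand of LFA-1, by 1.77 ± 0.20 and F11R, a junctional adhesion molecule, by 1.66 ± 0.22. THBS1, which encodes thrombospondin-1, was above the noise limit on 6 of 9 LPS arrays and 0 of 9 untreated arrays, and rose at least 1.18-fold (limma adjusted p = 0.00516). For such a bound the LPS mean is divided by the untreated mean, where each untreated array below its noise limit counts at that limit.

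Among 21 genes of integrin activation and adhesion signalling 6 rose and 3 fell with LPS, beside 13.6% and 15.4% of all named genes. LYN, a Src-family kinase, rose by 1.89 ± 0.25 and RAP1A, a small GTPase of inside-out activation, by 1.09 ± 0.16. RASGRP2, an exchange factor for RAP1, fell by 1.08 on the log2 scale (limma adjusted p = 0.0039), and FERMT1, an epithelial kindlin, fell by 2.86 (limma adjusted p = 0.000162). Of 17 hyaluronan genes and CD44 partners 2 rose and 1 fell, counts near or under those same shares. TNFAIP6, a secreted hyaluronan-binding protein, rose by 5.20 ± 0.45 (limma adjusted p = 0.000129, 3 of 9 untreated arrays above the noise limit), or by 4.46 with the dimmer untreated arrays raised to the limit. CEMIP2 rose by 1.60 ± 0.31, while HMMR, a hyaluronan receptor that also acts in mitosis, was at -1.70 ± 0.43 and fell.

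Of 13 osteopontin relatives and proteases 4 rose with LPS and 0 fell, where 13.6% of all named genes rose and 15.4% fell. MMP9, a gelatinase that can cut osteopontin, rose by 9.55 ± 0.31 and MMP7, another such protease, by 2.63 ± 0.44, with 4 of 9 untreated arrays above the noise limit. With the dimmer untreated arrays raised to the limit the rise of MMP7 was 1.35. MMP12, a macrophage elastase, was above the noise limit on 9 of 9 LPS arrays and 0 of 9 untreated arrays and rose at least 2.21-fold. TGM2, a transglutaminase that crosslinks osteopontin, rose by 0.81 ± 0.24 (limma adjusted p = 0.0444). Of 18 other leukocyte adhesion receptors 12 rose and 1 fell, against the same shares of all named genes, and their median was 1.05, against 0.05. Examples are PLAUR, the urokinase receptor, at 4.05 ± 0.20, CD2 at 2.92 ± 0.24, SELPLG, the P-selectin ligand, at 2.66 ± 0.29 and SIRPA, the CD47 receptor, at 1.53 ± 0.16. SIRPA had a mean log2 level of 15.80 with LPS, above SPP1 (15.27), so the top of the scale may limit its rise. In PBD150 plus LPS against LPS 0 genes passed in each of these 7 lists (limma), and the list medians ran from -0.17 to 0.11.

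**Figure D4:**
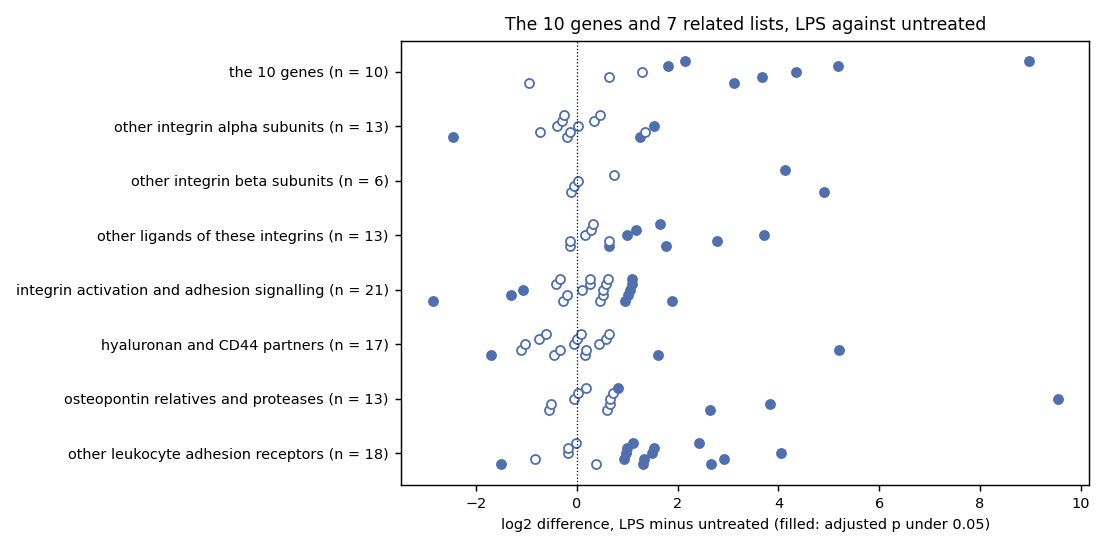
Log2 difference between LPS and untreated cells for the 10 genes and for the measured genes of 7 related lists, 1 point a gene. Filled points passed an adjusted p under 0.05, as 7 of the 10 genes and 12 of 18 other leukocyte adhesion receptors did on the higher side.

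Markers of other cells were read beside these results, in the fit where 13.6% of all named genes rose and 15.4% fell with LPS. Of 4 platelet and megakaryocyte markers, a lineage that also carries the ITGB3 product, 1 rose with LPS. It was PPBP, at 6.55 ± 0.35, while ITGA2B (0.46 ± 0.18) and PF4 (-0.26 ± 0.19) did not pass. GP1BA was above the noise limit on no array. The summed intensity of the list was 52516 to 65997 with PBD150 plus LPS, 23554 to 66091 with LPS and 834 to 887 untreated. Most of that sum in the treated groups was PPBP. Its mean log2 level with LPS was 15.38, against 8.33 for ITGA2B and 7.03 for PF4. That level was above the 15.27 of SPP1 with LPS, so the top of the scale may limit the rise of PPBP. Of 6 osteoclast markers 1 rose, DCSTAMP at 4.21 ± 0.17, and CTSK was above the noise limit on 1 array in all. Of 6 T and NK cell markers, cells that carry the ITGAL product, 0 passed in either direction (limma), with summed intensities of 2255 to 3704 with PBD150 plus LPS, 2414 to 5053 with LPS and 2553 to 3017 untreated. Of 6 myeloblast and granulocyte markers 2 fell, PRTN3 at -3.63 ± 0.17 and ELANE at -0.85 ± 0.16, and 0 rose. Their summed intensity was 37612 to 44065 with PBD150 plus LPS, 41507 to 45979 with LPS and 76069 to 78499 untreated. ELANE was the brightest of this list in untreated cells, with a mean log2 level above that of SPP1 with LPS. The top of the scale may therefore limit its fall and the untreated sum. Of 4 B cell markers MS4A1 rose (1.14 ± 0.27) and CD79A fell (-1.40 ± 0.23), with sums of 530.4 to 643.7 with PBD150 plus LPS, 556.6 to 785.6 with LPS and 1086 to 1152 untreated. Of 6 fibroblast and epithelial markers 2 rose, EPCAM at 2.36 ± 0.28 and DCN at 1.69 ± 0.29, with sums of 762.8 to 905.7 with PBD150 plus LPS, 575.6 to 888.9 with LPS and 416.6 to 494.9 untreated. Of 4 endothelial markers 0 passed (limma). In PBD150 plus LPS against LPS 0 markers of any list passed. The markers named in this paragraph were chosen after their values were seen. The part of any of these lists in the results above was not tested.

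The genes whose profiles over the 9 cultures lay nearest to a member were found by the root mean square distance between profiles centred on their own means, over 14722 genes. MMP9 (0.43), TDO2 (0.54) and INHBA (0.71) were nearest to SPP1, and all 3 had large rises with LPS of 9.55, 7.95 and 7.47. Nearest to ICAM1 were CD300C (0.13), TCIRG1 (0.14) and BTG2 (0.16), and to CD44 SCAMP5 (0.11), SGPL1 (0.12) and MCEMP1 (0.14). NUMB (0.05), GPR65 (0.12) and ST20-AS1 (0.13) were nearest to ITGB2. Among the members themselves CD44 and ITGB2 were closest (0.21), followed by ICAM1 and ITGAL (0.33). These distances are a description, since all profiles come from the same 27 arrays. For a member with a large rise the distance mostly reflects the size of that rise, so its nearest genes share it by construction.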

How the data were processed

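Per the labels, total RNA from U937 cells was amplified, labelled with Cy5 and hybridised to 27 single-colour arrays of 30968 probes. The deposited values are linear spot intensity, 1 column per array. How the authors scanned, corrected and scaled them is not given in the sources used here. The columns hold values below 0.

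Values under 1 were set to 1, and log2 intensities were then quantile normalised. The 3 arrays of a culture were averaged. A group-means model over the 9 cultures was fitted in limma 3.58.1 (R 4.3.3), with two-sided moderated tests and Benjamini-Hochberg adjustment over all probes at 0.05. The fit was also run on simulated data, with far fewer changed probes than were called for LPS here. No result above rests on that run. An absent call does not show that a gene was unchanged. Nothing in the labels says that cultures were grown on separate days, so p-values measure the spread between these cultures, and the 3 cultures a group, not the number of arrays, limit the precision. The labels do not say whether a replicate number marks a shared day or batch, so the main fit did not use it. Deviations of same-numbered cultures correlated at -0.22 to 0.04, which cannot show whether those cultures were paired.

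A single symbol was given for 17397 probes and none for 13571, and no probe had several. Of the symbols 2645 were updated through RefSeq (GRCh38.p14) and 82 stayed unmatched. A gene with several probes is given by its brightest one. In each related list the text may name the 4 genes with the smallest p for LPS against untreated and the 2 with the smallest p for PBD150 plus LPS against LPS, and for SPP1, CD44, ICAM1 and ITGB2 the 3 nearest profiles. Members and lists were chosen with earlier results of these data known.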

Additional observations from a re-analysis of the deposited data

How the results depend on the processing

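The differences of the 10 genes and the counts of members and probes called were recomputed under 17 alternatives. These were 8 other settings and 9 fits that each left out 1 culture. The related lists, the markers and the nearest profiles were not among the results recomputed. The 7 rises against untreated cells kept their direction and their call in all 17 alternatives, in both treated groups. The number of members lower with LPS than untreated was 0 and became 1 (ITGA4) with a pseudocount of 16, with array weights and with all 27 arrays and the culture as a random block, and was 0 to 1 with a culture left out. The number lower with PBD150 plus LPS than untreated was 1 and became 0 on the values as deposited, 0 with the replicate block, and 0 to 1 with a culture left out. The number higher with PBD150 plus LPS than untreated was 7 and became 8 (ITGB3) as deposited, with the pseudocount, with array weights and without PBD150 plus LPS replicate 3. With LPS it became 9 as deposited. The block changed no other call of a member, and a culture correlated best with its own number in only 1 of 9 pairs. No member passed between PBD150 plus LPS and LPS under any alternative, but signs were not fixed. On the values as deposited ICAM1 was at -0.034, ITGB3 at -0.053 and ITGAL at -0.047, and with array weights ITGAL was at -0.077. Leaving out 1 culture gave -0.034 to 0.33 for ICAM1, -0.041 to 0.33 for ITGB3, -0.47 to 0.055 for ITGA4, -0.19 to 0.46 for ITGAL and -0.30 to 0.0504 for ITGB2. The cause of these changes was not tested. Over all probes LPS against untreated gave 3292 higher and 3664 lower, 5935 and 2205 as deposited, and 2279 and 3806 with median centring. For PBD150 plus LPS against untreated the counts were 3887 and 4174, and 5051 and 3069 as deposited. With array weights they were 5458 and 5552 for LPS and 6373 and 5775 for PBD150 plus LPS. Between PBD150 plus LPS and LPS 0 probes passed, and 1 higher and 13 lower, none a member, with the random block. The alternative of another probe for a gene was not run, since each member has 1 probe. Dim signal limits ITGAV, and the top of the scale limits SPP1 and, with PBD150 plus LPS, may limit ITGAX.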
